A study of Mus musculus with 24 samples.

Results

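The chaperones of the endoplasmic reticulum (ER) that work with BiP were followed through sciatic nerves of mice with a Charcot-Marie-Tooth 1B type neuropathy. The members are the 10 genes Hspa5, Hsp90b1, Hyou1, Sdf2l1, Creld2, Dnajb9, Dnajb11, Dnajc3, Calr and Canx, chosen by symbol, out of 12393 genes measured. Affymetrix arrays give 22 probe sets for them: Sdf2l1, Creld2, Dnajb9 and Dnajb11 have 1 each and the other 6 members have several. The 24 arrays cover whole sciatic nerve, freed of its perineurial sheath, from 4 genotypes at 3 ages, with 2 biological replicates for each of the 12 groups. S63del animals make a mutant myelin protein, known to be retained in the ER of Schwann cells. S63del/Chop null mice make it without Ddit3, the gene of the transcription factor CHOP, Chop null mice lack Ddit3 alone, and WT mice have neither change. The ages are postnatal day 5 (P5) at the start of myelination, P28 around its peak, and 4 months. The labels name no promoter, strain or sex, and do not say whether replicates are single or pooled animals.

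BiP, encoded by Hspa5, is the Hsp70 chaperone of the ER lumen: it binds unfolded chains in cycles of ATP hydrolysis, and it also holds the stress sensors PERK, IRE1 and ATF6 inactive until unfolded protein draws it away. Its cycle is run by J-domain partners, by nucleotide exchange factors and by the Hsp90 of the ER, while calnexin and calreticulin fold glycoproteins through their sugars. Myelinating Schwann cells send large amounts of myelin glycoprotein through this machinery.

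The control regions of these genes are shown first, because several members share a motif there. The motif was picked as a known element of ER stress genes, so its share among the members is a description and no test. RefSeq promoters (GRCm38.p6, 250 bases before to 50 after the start) matched 9 of the 10 members; Hyou1 is named only. The ER stress element, CCAAT followed by any 9 bases and CCACG, is bound by ATF6 together with NF-Y. It was searched on both strands and lay in 6 of these 9 promoters, against 39 of 32851 promoters (0.119%). Capitals below mark its CCAAT and CCACG parts, or the same parts read from the other strand.
Hspa5 (chr2:34771840-34772089, plus strand): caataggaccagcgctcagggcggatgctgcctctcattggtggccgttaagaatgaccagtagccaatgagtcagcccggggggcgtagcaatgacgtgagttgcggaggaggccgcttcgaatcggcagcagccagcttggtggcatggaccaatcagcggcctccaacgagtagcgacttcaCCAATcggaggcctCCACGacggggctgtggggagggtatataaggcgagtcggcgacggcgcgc
Hsp90b1 (chr10:86705513-86705676, minus strand): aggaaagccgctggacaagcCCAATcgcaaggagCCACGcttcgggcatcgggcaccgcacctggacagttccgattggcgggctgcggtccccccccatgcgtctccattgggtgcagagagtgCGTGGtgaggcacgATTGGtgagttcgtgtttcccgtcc
Creld2 (chr15:88819500-88819558, plus strand): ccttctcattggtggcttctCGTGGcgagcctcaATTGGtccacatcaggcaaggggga
Dnajc3 (chr14:118937807-118937865, plus strand): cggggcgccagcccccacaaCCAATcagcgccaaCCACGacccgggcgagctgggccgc
Calr (chr8:84847055-84847113, minus strand): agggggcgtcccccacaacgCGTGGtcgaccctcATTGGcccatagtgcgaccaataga
Canx (chr11:50325780-50325838, minus strand): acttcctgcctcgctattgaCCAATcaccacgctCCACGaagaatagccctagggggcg
Hsp90b1 held the element on both strands, and its 2 copies did not overlap. In Hspa5 the match lay from 65 to 47 bases before the start. The members whose windows held no match were Sdf2l1, Dnajb9 and Dnajb11, shown from the last 100 bases before the start.
Sdf2l1 (chr16:17132384-17132483, minus strand): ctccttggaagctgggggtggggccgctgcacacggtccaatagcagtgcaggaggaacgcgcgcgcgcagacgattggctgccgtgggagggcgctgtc
Dnajb9 (chr12:44210069-44210168, minus strand): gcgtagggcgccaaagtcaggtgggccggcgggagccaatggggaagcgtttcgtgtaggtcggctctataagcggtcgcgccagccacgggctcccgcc
Dnajb11 (chr16:22857745-22857844, plus strand): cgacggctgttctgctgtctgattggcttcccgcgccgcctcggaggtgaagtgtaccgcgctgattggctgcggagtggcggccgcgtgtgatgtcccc
A shorter variant named ERSE-II, ATTGG, any base and CCACG, was found in Dnajb11 alone of the 9, after the start, and in 12 of 32851 promoters (0.0365%). The CCACG part by itself, which these elements contain, was in all 9, and in 32.8% of all promoters. Neither the XBP1 motif UPRE, TGACG followed by TGG (0.676% of promoters), nor the core of the amino acid response element, TGATG, any base and AAT (0.965%), matched any of the 9. Other forms of these motifs were not searched. Canx, which held the element, and Sdf2l1, which did not, had the smallest and the largest change of the group at P5, as described below.

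All levels below are log2 expression as deposited, differences are log2 values ± SE from limma from 2 arrays a group where nothing else is said, and rose or fell is written of genes with an adjusted p under 0.05 over the 12393 genes tested. Levels of different genes are not compared, because each probe set has its own response. Array medians lay between 6.84 and 7.03. Ddit3 was at 9.59 and 9.52 in S63del nerves at P5 and at 6.93 and 6.82 in S63del/Chop null nerves, against 6.85 and 6.60 in Chop null and 7.66 and 7.61 in WT; S63del/Chop null against S63del gave -2.68 ± 0.19 at P5, -2.32 ± 0.19 at P28 and -2.38 ± 0.19 at 4 months (adjusted p from limma 1.79e-06, 1.63e-05 and 1.11e-05), as the labels have it. The Chop null group at P28 had a residual SD of 0.394, the largest of the 12, which does not show which of its 2 arrays differs. The second had the narrowest interquartile range of all arrays, 2.90, against 3.38 in the first. It is called the array that stood apart below. All P28 arrays had narrower value ranges, with interquartile ranges of at most 3.52, against at least 3.77 at the other ages. At P28 the 18S RNA probe also read 5.92 to 6.71 in both S63del genotypes, against 9.43 to 10.6 in the others; the part of this in the P28 results was not tested. Whole nerve holds several cell types, so that more RNA per cell and more cells of a type cannot be told apart.

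At P5, 5 of the 10 chaperone genes were higher in S63del nerves than in WT nerves. The largest rise was that of Sdf2l1, a partner of the ER J-domain proteins that keeps unfolded chains from aggregating, at 2.31 ± 0.20 (adjusted p = 3.2e-06), 4.96-fold. It read 9.38 and 9.33 in S63del, 9.41 and 9.21 in nerves of S63del/Chop null mice, against 7.20 and 7.02 in Chop null and 7.13 and 6.97 in WT. All 4 arrays with the mutant protein thus lay more than 2 log2 units above all 4 without it. The 5 members that rose in S63del against WT were Sdf2l1, Creld2, Hsp90b1, Hyou1 and Dnajb11, and none fell, where 1.15% of all genes rose and 1.26% fell.

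Creld2, a secreted and ER-resident protein with disulfide isomerase activity, was at 10.71 and 10.80 in S63del, at 10.82 and 10.86 in nerves of S63del/Chop null mice, against 9.25 and 9.26 in Chop null and 9.44 and 9.12 in WT. Its rise in S63del against WT was 1.47 ± 0.22 (adjusted p = 0.000926, limma). These 2 members, neither of them a classical chaperone of the Hsp70 or Hsp90 families, had the largest rises of the group.

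Hsp90b1 encodes Grp94, the Hsp90 of the ER. It was at 12.56 and 12.59 in S63del, 12.61 and 12.53 in nerves of S63del/Chop null mice, against 11.99 and 11.94 in Chop null and 11.85 and 11.90 in WT, a rise of 0.70 ± 0.13 over WT (adjusted p = 0.00449, limma). Dnajb11, also called ERdj3, is a J-domain protein that hands unfolded chains to BiP; it rose by 0.65 ± 0.13 (adjusted p = 0.0087). Hyou1, the large Hsp70-like nucleotide exchange factor of BiP, was at 9.36 and 9.18 in S63del, 9.26 and 9.19 in nerves of S63del/Chop null mice, against 8.71 and 8.49 in Chop null and 8.49 and 8.46 in WT. Its rise of 0.80 ± 0.20 over WT had an adjusted p of 0.0424.

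Hspa5 itself separated as cleanly without passing in this comparison. Its arrays read 13.29 and 13.25 in S63del, 13.11 and 13.21 in nerves of S63del/Chop null mice, against 12.51 and 12.58 in Chop null and 12.54 and 12.43 in WT. S63del against WT gave 0.79 ± 0.21, or 1.73-fold, with an adjusted p of 0.069. Dnajc3, the J-domain co-chaperone p58IPK that also restrains PERK, gave 0.66 ± 0.17 (adjusted p = 0.0568), Dnajb9, or ERdj4, which directs clients to degradation and represses IRE1, 0.72 ± 0.23 (adjusted p = 0.154), and Calr, the soluble lectin chaperone, 0.35 ± 0.10 (adjusted p = 0.086). Canx, the membrane-bound lectin chaperone, gave 0.13 ± 0.12 (adjusted p = 0.856).

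**Figure D1:**
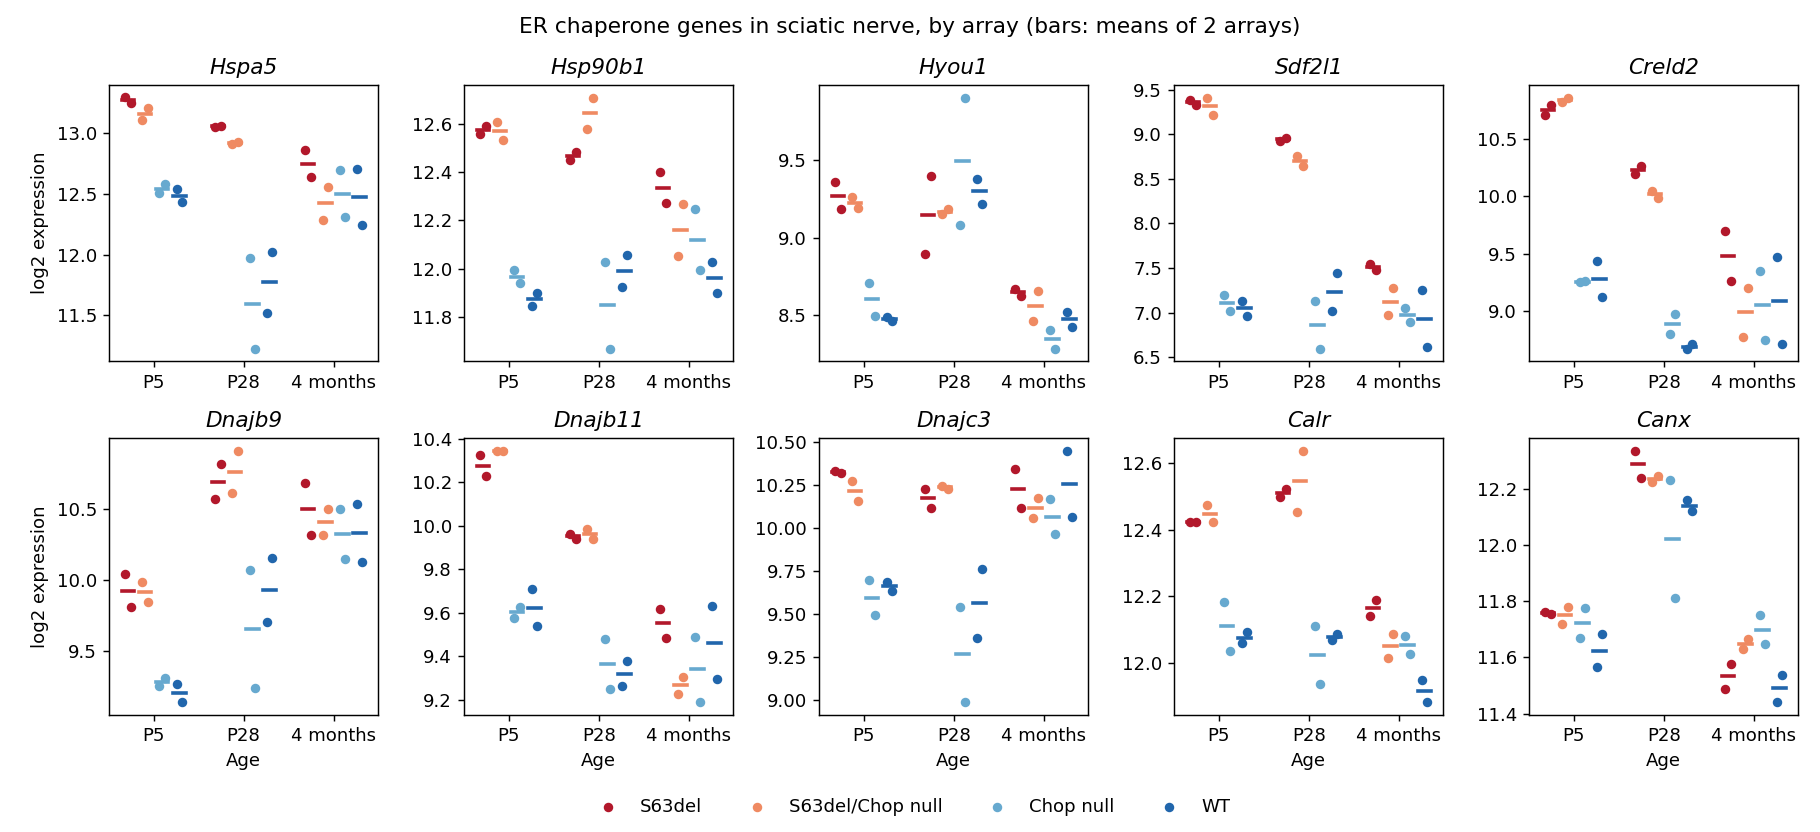
Log2 expression of the 10 members on every array, by age (x axis) and genotype (colour, S63del, S63del/Chop null, Chop null and WT from left to right); points are arrays, bars are means of 2, and each panel has its own scale. At P5 the 4 arrays of both S63del genotypes lie above the 4 others for 9 members, at P28 for 8 and at 4 months for 0. The shares of all genes for which this is so are 11%, 12.1% and 1.22%.

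With both S63del genotypes set against Chop null and WT (4 arrays against 4), 9 of 10 members rose at P5, all but Canx, where 2.87% of genes rose and 3.1% fell. Hspa5 then passed at 0.70 ± 0.15 (adjusted p = 0.00845), Dnajc3 at 0.64 ± 0.12 (adjusted p = 0.0033), Calr at 0.34 ± 0.07 (adjusted p = 0.00544) and Dnajb9 at 0.68 ± 0.17 (adjusted p = 0.0188). Dnajb9 missed the threshold, with an adjusted p of at most 0.0859, when either Chop null array, S63del replicate 1, S63del/Chop null replicate 1 or WT replicate 2 was left out. For the same 9 members every array of both S63del genotypes was above every other array, which was so for 11% of genes. The median over the members was 0.69, against -0.01 over all genes. In S63del against WT alone the count of 5 fell to 3, 2, 3 and 3 when S63del replicate 1, S63del replicate 2, WT replicate 1 or WT replicate 2 was left out, and Sdf2l1 and Creld2 passed each time; it was 9 without the P28 arrays.

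At P28 the same direction held for 9 of 10 members, and Hspa5 was now among the members that passed. In S63del against WT 6 members rose, Hspa5, Hsp90b1, Sdf2l1, Creld2, Dnajb11 and Calr, and none fell, where 3.01% of genes rose and 1.61% fell. Hspa5 was at 13.05 and 13.06 in S63del, 12.91 and 12.93 in nerves of S63del/Chop null mice, against 11.97 and 11.22 in Chop null and 11.52 and 12.02 in WT. The S63del genotypes did not overlap the others, which spread between 11.22 and 12.02. The rise over WT was 1.28 ± 0.21, or 2.44-fold (adjusted p = 0.00267). The pooled effect on Hspa5 was 0.60 ± 0.21 larger than at P5, which did not pass (adjusted p = 0.133). Without the Chop null array that stood apart this difference was 0.42 ± 0.18.

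Sdf2l1 rose by 1.71 ± 0.20 over WT at P28 (adjusted p = 0.000131, limma), with 8.93 and 8.96 in S63del, 8.76 and 8.65 in nerves of S63del/Chop null mice, against 7.13 and 6.59 in Chop null and 7.02 and 7.44 in WT. Creld2 rose by 1.54 ± 0.22 (adjusted p = 0.000895); its 10.19 and 10.26 in S63del, 10.05 and 9.99 in nerves of S63del/Chop null mice stood against 8.79 and 8.97 in Chop null and 8.67 and 8.71 in WT. Smaller rises were those of Dnajb11 at 0.63 ± 0.13 (adjusted p = 0.0106), Hsp90b1 at 0.48 ± 0.13 (adjusted p = 0.0411) and Calr at 0.43 ± 0.10 (adjusted p = 0.0199). Dnajb9 at 0.77 ± 0.23 (adjusted p = 0.0675) and Dnajc3 at 0.61 ± 0.17 (adjusted p = 0.0536) did not pass. The count of 6 was 2 without WT replicate 1 and 3 without either S63del array, and Sdf2l1 and Creld2 were among those that passed each time.

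Hyou1 departed from the group at P28. It read 8.89 and 9.40 in S63del, 9.15 and 9.19 in nerves of S63del/Chop null mice, against 9.08 and 9.90 in Chop null and 9.38 and 9.22 in WT, so that the groups overlapped. The difference was -0.15 ± 0.20 in S63del against WT (adjusted p = 0.705, limma) and -0.24 ± 0.14 with 4 arrays against 4 (adjusted p = 0.207). The highest reading was that of the Chop null array that stood apart; without it the difference between both S63del genotypes and the others was -0.03 ± 0.11, and S63del/Chop null against Chop null, -0.32 ± 0.20 with all arrays, was 0.09 ± 0.17. The change of this effect between ages, -0.95 ± 0.20 for P28 minus P5, passed with an adjusted p of 0.0135; this comparison was added after the data were seen, and 0.976% of genes passed in that direction. Without that Chop null array it was -0.74 ± 0.15 (adjusted p = 0.00835). WT nerves themselves had 0.82 more Hyou1 at P28 than at P5.

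Both S63del genotypes against the others at P28 gave 8 members higher, all but Hyou1 and Canx, with 16.1% of genes higher and 11.9% lower in the same comparison. Hspa5 rose by 1.30 ± 0.15 (adjusted p = 2.73e-05), Dnajb9 by 0.94 ± 0.17 (adjusted p = 0.001) and Dnajc3 by 0.79 ± 0.12 (adjusted p = 0.000393). Without the Chop null array that stood apart these differences were 1.12 ± 0.13, 0.73 ± 0.15 and 0.65 ± 0.11. For these 8 members no array of both S63del genotypes overlapped the others, as for 12.1% of genes. The background was much wider at P28 than at P5, and the 18S readings given above separate the same arrays.

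The mutant protein was also compared on the Chop null background, in other arrays. S63del/Chop null against Chop null gave 4 members higher at P5 (Hsp90b1, Sdf2l1, Creld2 and Dnajb11), with 0.904% of genes higher and 0.88% lower, and 8 at P28 (all but Hyou1 and Canx), with 9.77% higher and 8.05% lower. Sdf2l1 rose by 2.20 ± 0.20 at P5 (adjusted p = 5.09e-06) and by 1.84 ± 0.20 at P28 (adjusted p = 7.58e-05). Creld2 rose by 1.59 ± 0.22 (adjusted p = 0.000595) and 1.13 ± 0.22 (adjusted p = 0.00479). Hspa5 gave 0.62 ± 0.21 at P5 (adjusted p = 0.258) and rose by 1.32 ± 0.21 at P28 (adjusted p = 0.00137). Without the Chop null array that stood apart the P28 values were 0.95 ± 0.21 for Hspa5, 1.58 ± 0.22 for Sdf2l1 and 1.22 ± 0.27 for Creld2. The P5 count was 2 without Chop null replicate 1 and 8 without the array that stood apart at P28 and WT replicate 1 at 4 months; the P28 count was 1, Sdf2l1, with array weights and 2, Sdf2l1 and Creld2, in the 8 P28 arrays alone.

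**Figure D2:**
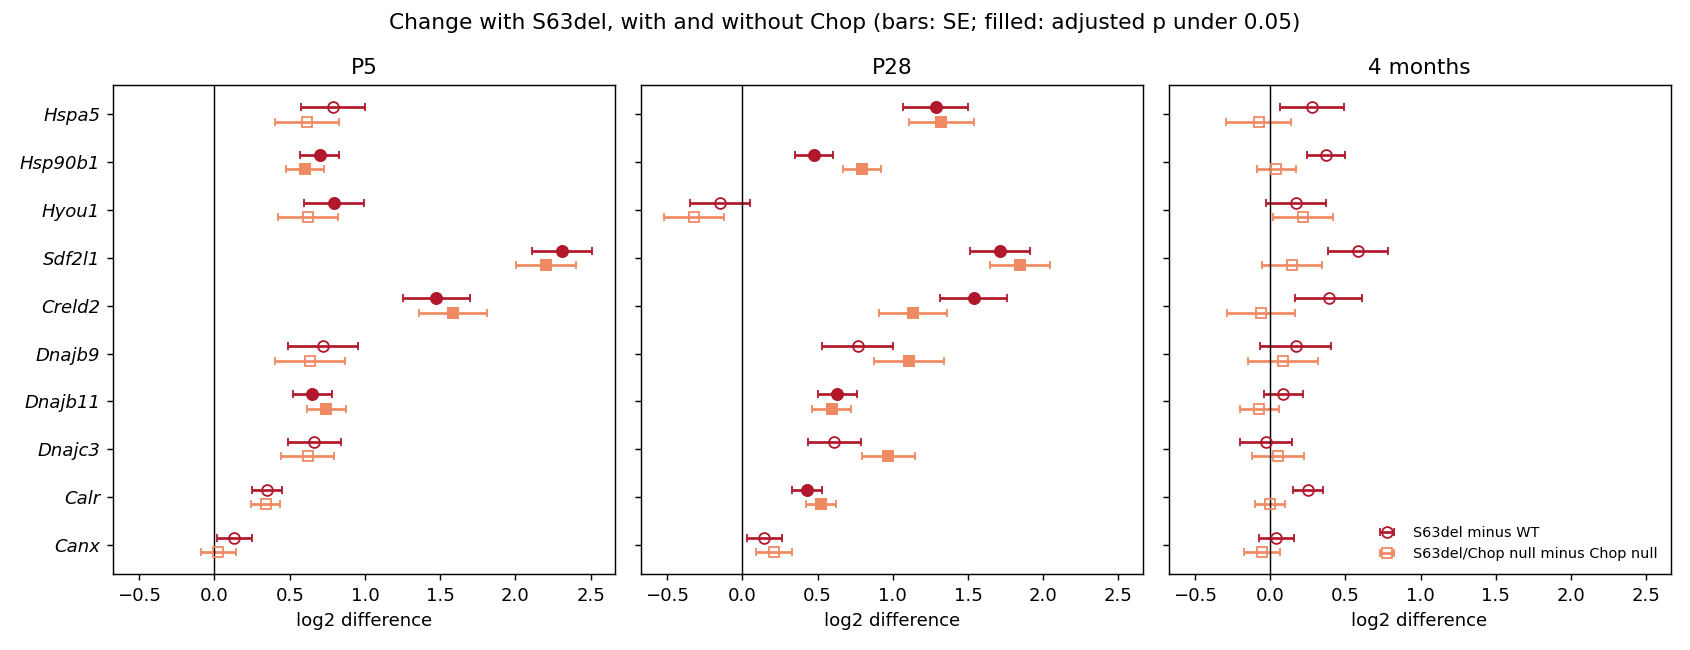
Log2 difference of each member at P5, P28 and 4 months, for S63del minus WT (circles) and S63del/Chop null minus Chop null (squares); bars are SE and filled symbols have an adjusted p under 0.05. Sdf2l1 and Creld2 lie farthest from 0 at P5, both comparisons of Hyou1 lie below 0 at P28 (the second is 0.09 without the Chop null array that stood apart), and no symbol is filled at 4 months.

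At 4 months no member passed in S63del against WT, S63del/Chop null against Chop null, or both together, and no gene did (0% higher and 0% lower in each, limma). At an unadjusted p under 0.05 there were 3, 0 and 2 members, against 4.66%, 1.46% and 3.29% of all genes. Sdf2l1 had 7.55 and 7.47 in S63del, 6.97 and 7.28 in nerves of S63del/Chop null mice, against 7.05 and 6.90 in Chop null and 7.25 and 6.61 in WT. Only the 2 S63del arrays stood above the rest, by 0.58 ± 0.20 over WT (adjusted p = 0.793). Hspa5 was at 12.86 and 12.64 in S63del, 12.29 and 12.56 in nerves of S63del/Chop null mice, against 12.69 and 12.31 in Chop null and 12.70 and 12.24 in WT. Its S63del arrays lay above both S63del/Chop null arrays and overlapped those of Chop null and WT, which also overlapped S63del/Chop null.

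RNA quality differed among the 4-month arrays: the GAPDH 3′ probe exceeded the 5′ probe by 1.32 and 1.05 in S63del, 0.35 and 0.55 in nerves of S63del/Chop null mice, against 0.03 and -0.04 in Chop null and 2.12 and 0.08 in WT. The WT array at 2.12 also had the higher WT value of Sdf2l1, Hspa5 and Creld2; the part of RNA quality in these values was not tested. Without that array S63del against WT was 0.90 ± 0.21 for Sdf2l1 (adjusted p = 0.134), 0.77 ± 0.23 for Creld2 (adjusted p = 0.333) and 0.51 ± 0.25 for Hspa5 (adjusted p = 0.749). Leaving out the second Chop null array at P28 as well, which narrows the shared spread, let Sdf2l1 pass in S63del against WT (adjusted p = 0.0401).

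Set against each other, the ages differed in the size of the change for several members. The S63del effect on Sdf2l1 was smaller at 4 months than at P5 (-1.73 ± 0.28, adjusted p = 0.00868, limma), where 0.137% of genes passed in that direction, and no other member passed in any of the 3 comparisons of S63del against WT between ages. The adjusted p was 0.0606 without S63del replicate 2 at 4 months, 0.0572 without WT replicate 1 at 4 months and 0.0634 without WT replicate 2 at P5. With both S63del genotypes pooled, a comparison added after the data were seen, the effect was smaller at 4 months than at P28 for 5 members, where 1.98% of genes passed in that direction: Hspa5 by -1.20 ± 0.21 (adjusted p = 0.00652), Sdf2l1 by -1.41 ± 0.20 (adjusted p = 0.00114), Creld2 by -1.17 ± 0.22 (adjusted p = 0.0101), Dnajb11 by -0.61 ± 0.13 (adjusted p = 0.0188) and Dnajc3 by -0.78 ± 0.17 (adjusted p = 0.0231). Without the Chop null array that stood apart at P28 the 5 differences were -1.02, -1.28, -1.22, -0.55 and -0.64, in the same order. Against P5 the pooled effect at 4 months was smaller for 3, Sdf2l1, Creld2 and Dnajb11, where 0.694% of genes passed. With array weights Creld2, Dnajb11 and Dnajc3 did not pass in the comparison of 4 months with P28 (adjusted p 0.0835, 0.0893 and 0.0751). Dnajb11 and Dnajc3 also missed it, with adjusted p of at most 0.0714, without Chop null replicate 1, S63del replicate 2 or S63del/Chop null replicate 1 at 4 months, and without S63del replicate 1 or WT replicate 1 at P28.

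**Figure D3:**
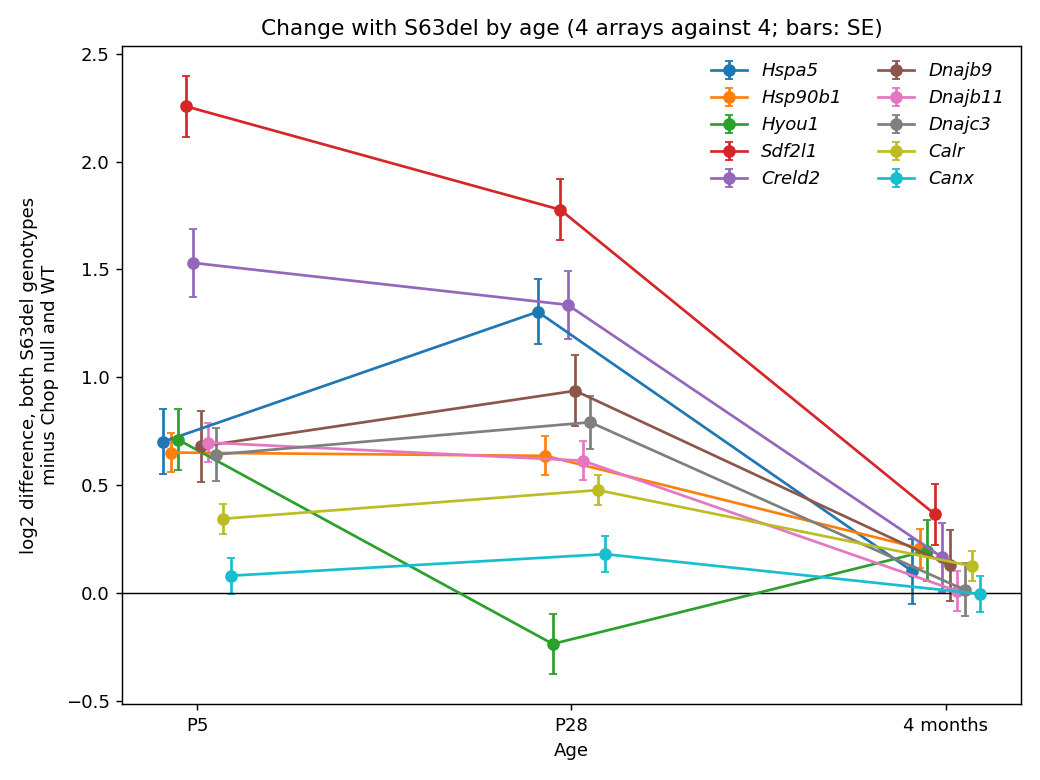
Log2 difference of each member between both S63del genotypes and the Chop null and WT nerves (4 arrays against 4), at P5, P28 and 4 months; bars are SE. Sdf2l1 falls to 0.36 at 4 months, against 2.26 at P5. Hspa5 peaks at 1.30 at P28, and Hyou1 is below 0 at P28 alone, at -0.24. Without the Chop null array that stood apart these P28 values are 1.12 and -0.03.

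Age by itself moved some members in WT nerves, where large shares of all genes moved. From P5 to P28 Hyou1, Dnajb9 and Canx were higher and Hspa5 and Creld2 lower at P28, with 31.3% of genes higher and 28.2% lower. At 4 months against P28 Hspa5 and Dnajc3 were higher and Hyou1 and Canx lower, with 31.5% higher and 25.5% lower. Against P5, 4 months had Dnajb9 higher by 1.13 and Dnajc3 by 0.59, with 21.3% higher and 15.5% lower. These counts are near or below the shares of all genes; the sources used here do not say whether the ages were normalized together, and the Canx differences were -0.08 and -0.04 with the mean of its probe sets.

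Averaged over the 3 ages, 8 members rose in S63del against WT (3.84% of genes higher, 3.05% lower) and 8 in S63del/Chop null against Chop null (2.28% higher, 1.37% lower), in each case all but Hyou1 and Canx. The averages for Hspa5 were 0.78 ± 0.12 (adjusted p = 0.00088, limma) and 0.62 ± 0.12 (adjusted p = 0.00977), and those for Sdf2l1 1.53 ± 0.12 and 1.40 ± 0.12.

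The question of whether CHOP alters the chaperone response was addressed by S63del/Chop null against S63del. No member passed at any age (limma), and 0 at P5, 0 at P28 and 2 at 4 months had an unadjusted p under 0.05, as had 0.888%, 3.76% and 2.21% of all genes. Of all genes 0% were higher at each age, and 0.0161%, 0.00807% and 0.00807% lower. Hspa5 differed by -0.11 at P5 (95% interval -0.57 to 0.34), -0.14 at P28 (-0.59 to 0.32) and -0.33 at 4 months (-0.78 to 0.13). Averaged over the 3 ages it differed by -0.19 (-0.45 to 0.07), Sdf2l1 by -0.22 (-0.47 to 0.02) and Hsp90b1 by 0.00 (-0.15 to 0.16). Over all members the averaged intervals reached from -0.48, for Creld2, to 0.27, for Dnajb9. For each member, differences within its own interval are not excluded.

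At 4 months 9 of 10 members had a lower mean in S63del/Chop null than in S63del nerves, with a median of -0.14, against -0.03 over all genes. Of all genes only 41.2% had a higher mean in S63del/Chop null, so most genes leaned the same way. Creld2 was at 8.78 and 9.20 in S63del/Chop null, against 9.70 and 9.26 in S63del, and Dnajb11 at 9.23 and 9.30, against 9.62 and 9.48. The intervals of these 2 genes ended below 0 (-0.96 to -0.02 and -0.56 to -0.01), before adjustment. The same arrays differ in the GAPDH readings given above.

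Loss of Ddit3 alone left the members without a called change: Chop null against WT passed for 0 members at each age, with 0% of genes higher at each age and 0%, 0% and 0.00807% lower (limma). At an unadjusted p under 0.05 there were 0 members at each age, against 0.92%, 10% and 5.91% of genes. The largest difference was that of Sdf2l1 at P28, -0.37 ± 0.20, which was -0.11 ± 0.22 without the Chop null array that stood apart. Without Chop null replicate 1 at P28, which leaves the array that stood apart, 1 member passed as higher and 4 as lower at that age, where 16.2% of genes were higher and 11.9% lower. The direct test of whether the mutant effect depended on Chop, the difference between both mutant effects, passed for 0 members at each age, with 0% of genes higher and 0% lower at each age, and for 0 at an unadjusted p under 0.05, against 0.863%, 7.84% and 2.6% of genes.

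**Figure D4:**
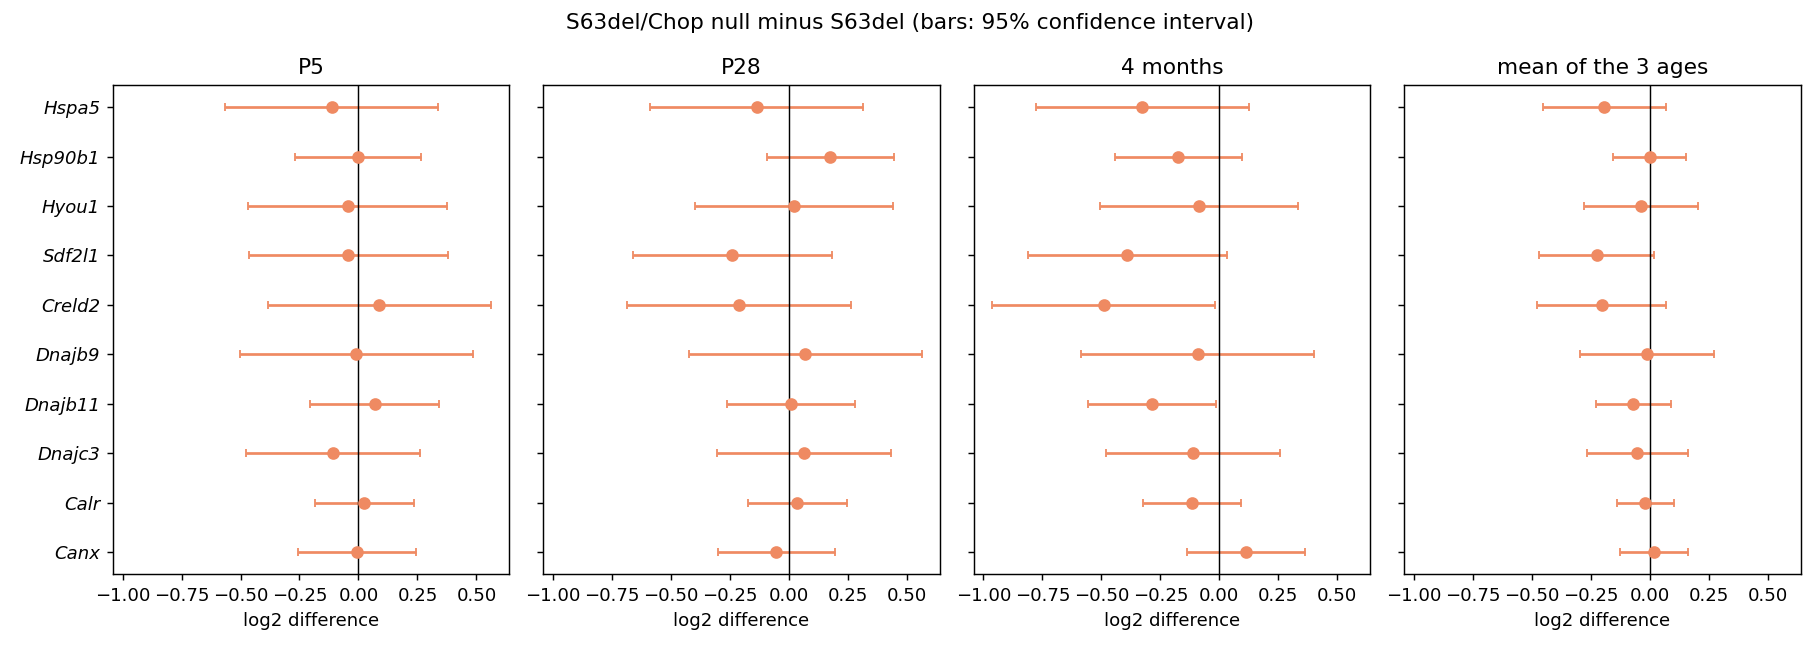
Log2 difference between S63del/Chop null and S63del nerves for each member at P5, P28, 4 months and averaged over the 3 ages; bars are 95% confidence intervals. The averages of all 10 members lie between -0.22 and 0.02, and the intervals of Creld2 and Dnajb11 at 4 months end below 0.

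The 22 probe sets gave the same picture for most genes with several. At P5 16 of 22 rose in both S63del genotypes against the others, all 22 were above 0, and 2.49% of all 20380 probe sets rose; at P28 16 rose and 1 fell, with 13.8% and 10.4%. Both probe sets of Hspa5 rose at P28, by 1.30 and 1.22. All 5 of Dnajc3 rose at both ages, between 0.64 and 0.90 at P5 and between 0.52 and 1.15 at P28. One of them, 1449372_at, also rose in S63del against WT at P28 (1.19 ± 0.17, adjusted p = 0.00118), with 9.01 and 9.26 in S63del, against 7.96 and 7.94 in WT.

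Canx and Hyou1 depended on the probe set. Of the 3 for Canx, at P28 1428935_at gave 7.90 and 7.99 with S63del, 7.69 and 7.73 with S63del/Chop null, against 7.50 and 6.97 in Chop null and 7.32 and 7.22 in WT, and rose by 0.68 ± 0.15 over WT (adjusted p = 0.0207). The brighter one used for the gene, 1415692_s_at, gave 0.15 ± 0.12. All 3 of Hyou1 were below 0 at P28, and the dim 1451913_a_at gave 4.38 and 4.38 in S63del, 4.26 and 4.20 in nerves of S63del/Chop null mice, against 4.43 and 5.21 in Chop null and 4.62 and 4.63 in WT. Its difference of -0.42 ± 0.14 in both S63del genotypes passed (adjusted p = 0.0411, limma). The highest of these readings, 5.21, was that of the Chop null array that stood apart. Without that array, left out after the data were seen, the difference was smaller, at -0.22 ± 0.11. Those of Calr named 1433806_x_at and 1456170_x_at, where x marks probes that may bind other transcripts, gave 0.24 and 0.17 at P28, against 0.48 for 1417606_a_at.

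**Figure D5:**
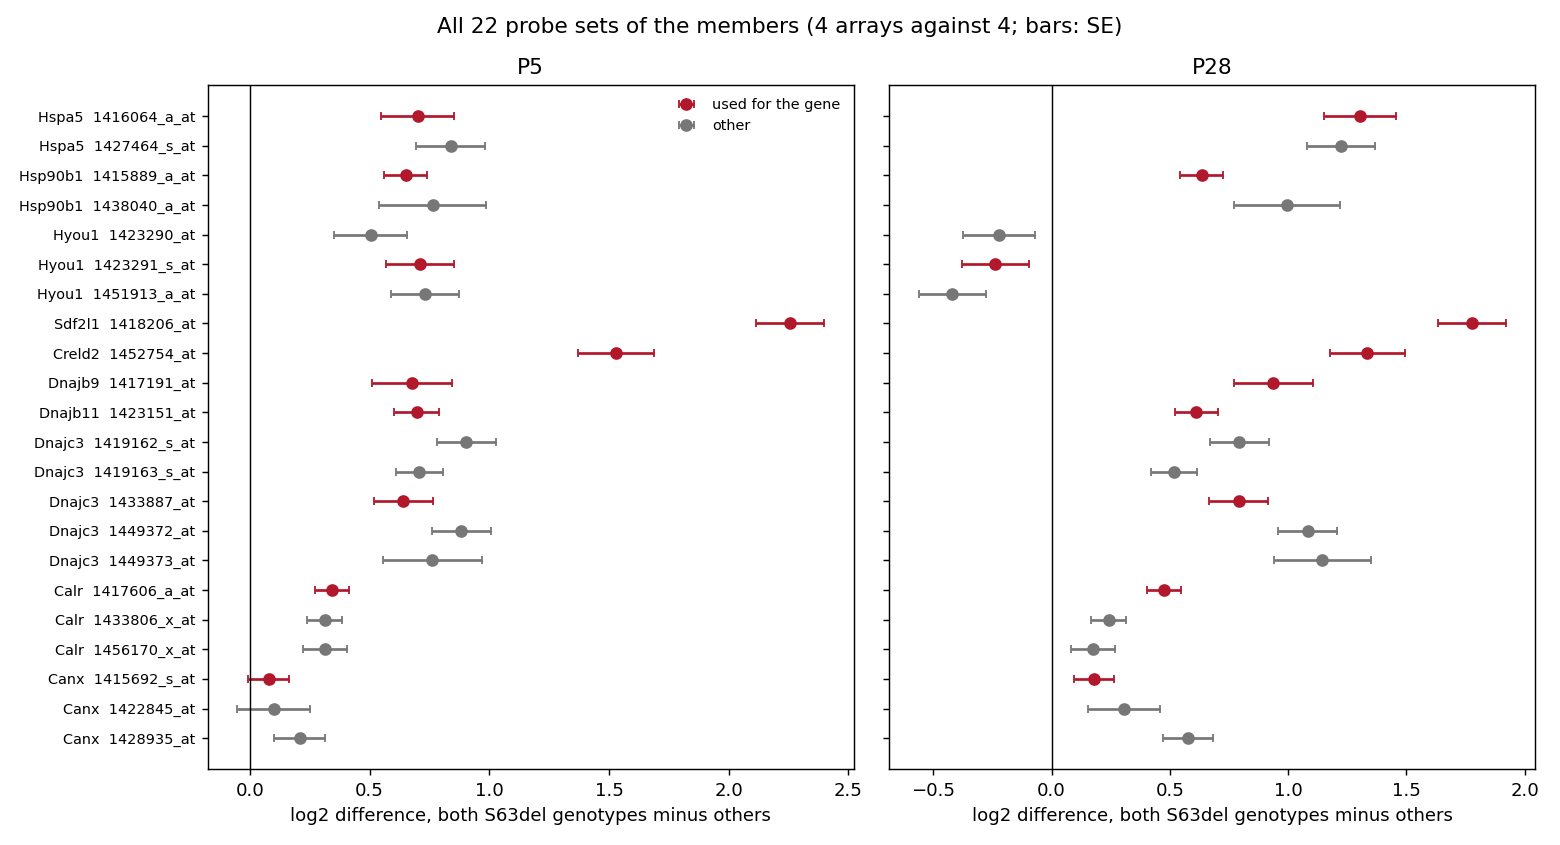
Log2 difference between both S63del genotypes and the Chop null and WT nerves (4 arrays against 4) for all 22 probe sets at P5 and P28; red marks the probe set used for the gene, and bars are SE. All 22 lie above 0 at P5, and the 3 of Hyou1 are the only ones below 0 at P28.

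Around the members, some other ER folding factors moved as well. Of 44 listed, 38 were measured. In S63del against WT 2 rose at P5, 5 at P28 and 0 at 4 months, where 1.15%, 3.01% and 0% of all genes rose. The medians were 0.09, 0.22 and 0.08, against -0.02, 0.01 and 0.00 over all genes. With both S63del genotypes against the others 5, 20 and 0 rose at these ages, where 2.87%, 16.1% and 0% of all genes rose. Pdia4, a disulfide isomerase with several thioredoxin domains, rose by 0.97 ± 0.12 at P5 (adjusted p = 0.000124) and 0.72 ± 0.12 at P28 (adjusted p = 0.00252). Manf, a secreted ER protein that binds BiP, rose by 0.93 ± 0.19 (adjusted p = 0.0123) and 1.01 ± 0.19 (adjusted p = 0.00726). At P28 the isomerase Pdia6, the oxidase Ero1b and the AAA+ ATPase Tor1a rose as well, by 0.76 ± 0.15, 0.99 ± 0.25 and 0.51 ± 0.12. In S63del/Chop null against Chop null 2, 14 and 0 rose at P5, P28 and 4 months, where 0.904%, 9.77% and 0% of all genes did. None fell, and none passed between the S63del genotypes.

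Of 20 regulators and targets of the unfolded protein response 19 were measured. In S63del against WT 5 rose at P5, 6 at P28 and 0 at 4 months, where 1.15%, 3.01% and 0% of all genes rose. In S63del/Chop null against Chop null 3, 7 and 0 rose, where 0.904%, 9.77% and 0% of all genes did. None fell in either comparison. Ddit3 was among the 5 and the 6, and could not rise in the other comparison, where both genotypes lack it. Derl3, a degradation factor of the ER membrane, rose by 2.41 ± 0.24 at P5 and 1.30 ± 0.24 at P28. Herpud1, another, rose by 0.81 ± 0.12 and 0.53 ± 0.12. The transcription factor Atf3 rose by 1.81 ± 0.20 and 1.16 ± 0.20.

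Of the sensors and their first transcription factors (Atf6, Ern1, Eif2ak3, Xbp1 and Atf4) Xbp1 alone passed in S63del against WT at P28, and none did at P5. Xbp1, whose mRNA is spliced by IRE1, gave -0.14 ± 0.13 at P5 (adjusted p = 0.855) and rose by 0.63 ± 0.13 at P28 (adjusted p = 0.0103); the arrays do not measure its splicing. Nfya, a subunit of the NF-Y complex that binds CCAAT, gave 0.12 ± 0.14 at P5 and rose by 0.63 ± 0.14 at P28 (adjusted p = 0.0191). In S63del against WT at P5 and P28, Atf6 gave 0.20 and 0.13, and Ern1, the gene of IRE1, 0.04 and -0.35. Eif2ak3, the gene of PERK, gave 0.20 and 0.38, and Atf4 0.12 and 0.04, and none of these passed. In S63del/Chop null against Chop null Eif2ak3 rose at P28 by 0.45 ± 0.15 (adjusted p = 0.0496, limma). With both S63del genotypes against the others at P28, Eif2ak3 and Xbp1 rose and Ern1 fell, where 16.1% of genes rose and 11.9% fell. Atf6 and Atf4 did not pass there. Both of these comparisons include the Chop null array that stood apart. Trib3, a target of CHOP and ATF4, rose by 1.11 ± 0.18 at P5 (adjusted p = 0.00191) and gave 0.14 ± 0.18 at P28.

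Markers of the cells in the nerve moved beside the chaperones. Of 10 genes of myelinating Schwann cells 6 were measured, and Mbp, Mal and Ncmap fell in S63del against WT at P5 and Mal at P28. Of 8 genes of immature and repair Schwann cells 1 rose at P5 and 6 at P28 (Sox2, Pou3f1, Id2, Ngfr, Gfap and Jun), with a median of 1.34. At P28 3 of 9 macrophage genes and 2 of 6 mast cell genes rose. Of all genes in S63del against WT 1.15% rose and 1.26% fell at P5, and 3.01% rose and 1.61% fell at P28. Of the 6 measured genes of B and plasma cells 0 rose at any age in S63del against WT. Their mean ranged from 4.44 to 5.63 across arrays, below the array medians of 6.84 to 7.03, so the lack of a rise says little. Of 7 endothelial genes 0 were above 0 in S63del against WT at P5 (median -0.40, Vwf fell) and 0 at P28 (median -0.36). The mean of 8 skeletal muscle genes ranged from 6.54 to 12.01 across arrays, within groups as well as between them. The part of cell composition in the chaperone results was not tested.

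Patterns over the 24 arrays were described by centring each gene on its mean at each age and ranking all genes by Pearson's r with Hspa5. The arrays share genotype and normalization, and no p is given. Among the members Dnajb9 (r = 0.956, rank 4) and Dnajc3 (0.947, rank 6) were nearest, followed by Calr (0.916), Hsp90b1 (0.911), Dnajb11 (0.909), Sdf2l1 (0.897) and Creld2 (0.880). Canx (0.592) and Hyou1 (0.047) were far from it. The Chop null array that stood apart had the lowest Hspa5 reading at P28, 11.22, and the highest Hyou1 reading, 9.90. How far the low r of Hyou1 rests on that array was not tested. Outside the members the nearest genes were Tmed9 (0.968), Lrrfip1 (0.959), Mcfd2 (0.957), Stt3a (0.951), Cxcl14 (0.944), Psma7, Hint1 and Ms4a4d.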

How the data were processed

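The authors deposited log2 expression values for 22690 probe sets on 24 arrays, a unit taken from the range of the values; the sources used here do not give their normalization or software, or whether ages were processed together. Per the labels' protocols, total RNA was labelled as biotinylated cRNA. Probe sets with 1 gene symbol (20380) were kept, and for each of 12393 genes the one with the highest mean over all arrays was used. The means of the 12 groups were estimated in 1 model by limma 3.58.1 (R 4.3.3, 12 residual degrees of freedom), with Benjamini-Hochberg adjustment over all genes (over all kept probe sets for single probe sets) and a threshold of 0.05, in 35 comparisons, of which the 3 on age differences of the pooled effect were added after the data were seen. The fit was tested on simulated data. The replicates are labelled biological; precision is limited by 2 arrays a group. Members, lists and tests were chosen with earlier results of these data known. Genes named are the members, up to 6 genes of each pathway list with the smallest p at each age, 6 fixed stress genes, the 8 genes with the pattern most like Hspa5, the 8 most like the mean of the members, and called markers. Alternatives were another normalization, other probe set rules, a filter on dim genes, other samples in the fit, array weights, another variance model, a replicate block and leaving out arrays. Some genes are not reported here.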

Additional observations from a re-analysis of the deposited data

Results flagged for a closer look

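The size of the mutant effect differed between ages for several members, each by limma's test of the difference itself. For S63del against WT, the effect on Sdf2l1 at 4 months minus that at P5 was -1.73 (adjusted p = 0.00868). With both S63del genotypes pooled, P28 minus P5 was -0.95 for Hyou1 (adjusted p = 0.0135). For 4 months minus P28 the differences were -1.20 for Hspa5, -1.41 for Sdf2l1, -1.17 for Creld2, -0.61 for Dnajb11 and -0.78 for Dnajc3. Without the Chop null array that stood apart at P28 they were -1.02, -1.28, -1.22, -0.55 and -0.64. For 4 months minus P5 they were -1.89 for Sdf2l1 (adjusted p = 3.39e-05), -1.37 for Creld2 (adjusted p = 0.00267) and -0.69 for Dnajb11 (adjusted p = 0.00811). The pooled comparisons were added after the data were seen, and age is tied to the narrower value range of the P28 arrays and to the uneven RNA quality at 4 months; the part of either was not tested.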

How the results depend on the processing

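Of 350 results for single members 88 passed the threshold, and 40 of these lost it under at least 1 alternative; of 6430 alternative values 6128 stayed on their side of the threshold, among them 277 uncalled values that changed sign where 1 of the values compared lay within 1 SE of 0. A called value changed sign once: Canx in WT at P28 against P5 was -0.083 with the mean of all probe sets. Dnajb11 in WT at 4 months against P28, not called, was -0.144 after another quantile normalization. The cause was not tested.

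In S63del against WT at P5 the count of members higher was 9 in the 8 arrays of that age, with array weights, without the second Chop null array at P28 and the first WT array at 4 months, without that Chop null array alone (added after the data were seen), or without the P28 arrays, and 8 with dim genes left out or with an intensity trend and robust estimation. It was 2 at P28 in the 8 arrays of that age, and 1 at 4 months without the 2 arrays named. In S63del/Chop null against Chop null at P5 it was 8 in the 8 arrays of that age, 9 with array weights, 8 without the 2 arrays, 7 without that Chop null array alone and 7 without the P28 arrays; at P28 it was 2 in the 8 arrays of that age and 1 with array weights. Leaving out 1 array of the groups compared at a time, where the lone array is assumed to vary like the other groups, gave 2 to 3 at P5 and 2 to 7 at P28 for S63del against WT, 2 to 3 and 6 to 9 for S63del/Chop null against Chop null, with 0 to 1 lower at P28, and for Chop null against WT at P28 0 to 1 higher and 0 to 4 lower. With the replicate number as a block within age, S63del against WT had 5 at P5, 5 at P28 and 0 at 4 months, with 4, 8 and 0 for S63del/Chop null against Chop null, and 0 for the other comparisons. The labels do not say that the numbers pair samples, and correlations of same-numbered deviations ranged from -0.25 to 0.35 at P5, -0.32 to 0.21 at P28 and -0.48 to 0.10 at 4 months over 6 pairs of groups each. Apart from Chop null against WT at P28 without Chop null replicate 1, no share of all genes called is given for these alternative fits. Their counts, here and above, are therefore not read as stronger or weaker results for the members.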

Other observations

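The mean of the 10 members, centred within each age, followed Sdf2l1 most closely over the 24 arrays (Pearson's r = 0.988); Sdf2l1 is itself part of that mean and had the largest change of the 10 members at P5, so that its closeness is partly built in. Outside the members the nearest genes were Mllt11 (0.971), Hspe1, a mitochondrial co-chaperonin (0.971), Manf (0.968), Txn1, the cytosolic thioredoxin (0.960), Hsp90aa1, a cytosolic Hsp90 (0.960), the cytokine receptor Osmr (0.957), Cxcl14 (0.957) and Snx10 (0.957). These values describe arrays that share genotype, and no p is given.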
